A study of Mus musculus with 6 samples.

Results

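Receptors of vascular endothelial growth factor (VEGF) and of the angiopoietins, with the 2 main angiopoietins, were read from 22 probe sets of 10 genes, out of 45037 probe sets on the array. The members were all probe sets whose only gene symbol in the array annotation was Kdr, Flt1, Flt4, Nrp1, Nrp2, Plxnd1, Tek, Tie1, Angpt1 or Angpt2. The cells were A2.Snail ESCs, mouse cells carrying a Snail transgene that is expressed when doxycycline (dox) is added, grown as embryoid bodies in 10% FCS. In the DKK + dox cultures 250 ng/mL of dox was added on day 2, and the DKK cultures received none. Both held the Wnt inhibitor DKK1 and carried the same transgene, and RNA was taken 6, 12 and 24 hours later (days 2.25, 2.5 and 3). There was 1 array per condition and time, 6 in all, and none of them had dox without Snail. The sources used here do not say whether the line was 1 clone.

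VEGF ligands signal through the receptor tyrosine kinases VEGFR1 (Flt1), VEGFR2 (Kdr, also Flk1) and VEGFR3 (Flt4), with the neuropilins as co-receptors. The angiopoietins act on the receptor tyrosine kinase Tie2 (Tek), beside which stands the related orphan receptor Tie1. In the embryo Kdr marks early mesoderm with blood and endothelial potential, while Tek and Tie1 act later, in endothelium. Flk1 protein was one of the mesoderm markers followed in this study by flow cytometry, and the paper reports that Snail induced it even with DKK. The choice of Kdr is therefore not independent of the study's question or of that result.

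The arrays were alike in scale, with medians between 53.5 and 63.7 intensity units. An intensity of 37.2, the 40th percentile of all values, was used as the low-signal limit, and between 37.5 and 41.3 percent of each array's probe sets did not exceed it. The probe set of Snai1 read 29.6, 18.8 and 14.5 in DKK + dox and 32.9, 16.6 and 10.9 in DKK at 6, 12 and 24 hours, all under the limit, so it does not check the induction. Cdh1, which encodes E-cadherin, read 3465, 2868 and 3063 in DKK + dox and 4481, 5957 and 6222 in DKK. Of the 22 member probe sets, 18 exceeded the limit on at least 1 array and 4 did so on all 6. Where a gene had several probe sets, the one with the highest mean stood for it. Of these 10 main probe sets 9 exceeded the limit, and 3 of these (Flt1, Plxnd1 and Angpt1) did so only on DKK + dox arrays. A difference between conditions is DKK + dox minus DKK of log2(intensity + 20.6), and the offset makes it understate the change of low genes. With 1 array a side, no single time has a replicate.

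In mouse assembly GRCm38.p6, Kdr (chr5:75932827-75979072) shares its chromosome with Flt1 (chr5:147561604-147726438), Tek (chr4:94739086-94874976) with Tie1 (chr4:118471191-118489849), and Nrp1 (chr8:128358591-128505476) with Angpt2 (chr8:18690263-18741562), each pair at distant positions. The others are Flt4 (chr11:49609679-49652739), Nrp2 (chr1:62703317-62818692), Plxnd1 (chr6:115954811-115995339) and Angpt1 (chr15:42424667-42676977). RefSeq promoters of assembly GRCm38.p6 were at hand for 8 of the 10 genes, Angpt1 and Angpt2 being the others. The 250 bases upstream of each start site were searched on both strands for 5 motifs. These were the E-box CAGGTG, which Snail binds, and CAGATG, an E-box of the kind bound by Tal1 in blood progenitors. Further motifs were the ETS site CGGAAG and the site AGATAA of GATA factors. The last was the TATA box, TATAAA. No match overlapped another. The windows of Kdr, Flt1, Nrp1 and Plxnd1 lie wholly within the annotated gene, as do 203 of the 250 bases for Tek. Shown here are the 3 windows that lie wholly outside the annotated gene, of a receptor that rose with dox (Flt4), of a co-receptor that did not pass (Nrp2) and of the receptor that stayed under the low-signal limit (Tie1), each from 5′ to 3′ on the strand of the gene, with motif matches in capitals. They are chr11:49609429-49609678 (plus strand), chr1:62703067-62703316 (plus strand) and chr4:118489850-118490099 (minus strand).
Flt4: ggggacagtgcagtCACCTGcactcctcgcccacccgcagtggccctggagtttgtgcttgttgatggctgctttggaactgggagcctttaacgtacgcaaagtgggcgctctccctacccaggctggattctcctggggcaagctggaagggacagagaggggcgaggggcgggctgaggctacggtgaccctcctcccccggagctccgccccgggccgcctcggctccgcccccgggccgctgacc
Nrp2: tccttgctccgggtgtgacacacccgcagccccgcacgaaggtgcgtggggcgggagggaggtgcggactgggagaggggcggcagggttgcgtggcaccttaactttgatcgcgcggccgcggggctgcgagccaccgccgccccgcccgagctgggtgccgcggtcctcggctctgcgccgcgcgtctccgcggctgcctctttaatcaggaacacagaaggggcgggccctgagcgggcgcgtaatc
Tie1: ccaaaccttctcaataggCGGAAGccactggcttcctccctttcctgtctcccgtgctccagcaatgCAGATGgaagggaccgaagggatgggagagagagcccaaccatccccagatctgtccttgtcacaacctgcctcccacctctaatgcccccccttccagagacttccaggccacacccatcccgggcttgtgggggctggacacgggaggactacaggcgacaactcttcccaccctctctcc

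The Snail E-box matched in 1 of the 8 windows, that of Flt4, as CACCTG starting 236 bases upstream, against 17.2 percent of 32851 promoters searched in the same way. The Tie1 window held an ETS match at 232 bases and a CAGATG at 183 bases, and the Nrp2 window held none of the 5 motifs. Over the 8 windows the ETS site matched in 1 (13.6 percent of all promoters), the GATA site in 0 (9.99 percent), CAGATG in 2, Kdr being the other (14.4 percent), and the TATA box in 1, that of Flt1 (12.4 percent). The Nrp2 window held 32 CpG dinucleotides and that of Tek 2. A match is a stretch of letters and does not show binding.

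With Snail induced, 6 of the 10 genes rose in the fit across the 3 times: Kdr, Flt1, Flt4, Nrp1, Tek and Angpt1. None fell, Nrp2, Angpt2 and Plxnd1 did not pass, and Tie1 was not tested because its signal was too low. The model let the difference grow linearly with time from dox addition, and its value at 24 hours is the fitted difference. With an adjusted p of less than 0.05 from limma, 8.32 percent of the 14755 genes tested rose and 6.38 percent fell. With no filter on low signal the same 6 members passed, and 6.37 percent of 18193 genes rose. The median measured difference of the 10 genes was 0.02, 0.59 and 1.51 at 6, 12 and 24 hours, and that of all 18193 genes was -0.03, 0.03 and 0.01. The test rests on the growth with time: with 1 constant difference for all times, limma called no gene (2927 genes, 5 members among them, had an unadjusted p under 0.05 from limma), and without the 24 hour pair 1 member, Angpt1, passed. With 2 residual degrees of freedom, the p-values set the fitted difference against the scatter of the 6 arrays about that trend. Through limma, that scatter also draws on all genes tested, with a prior of 5.50 degrees of freedom. With no replicate cultures, it does not measure variation between cultures.

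**Figure D1:**
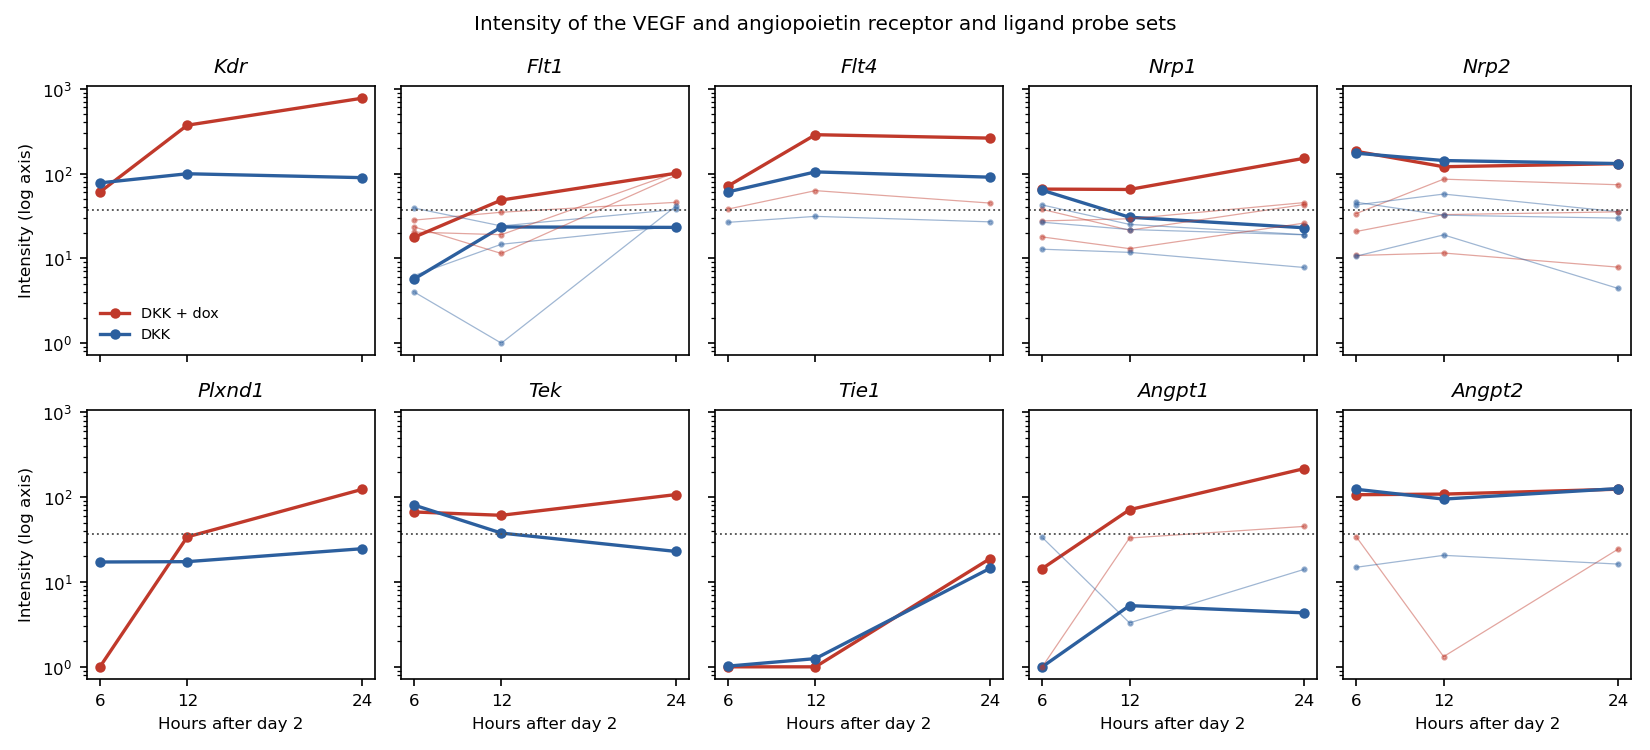
Intensity (log axis) against hours after day 2 for the 10 genes, DKK + dox in red and DKK in blue, 1 array per point; thick lines are the probe set with the highest mean, thin lines the other probe sets, and the dotted line is the low-signal limit of 37.2. On the thick lines Kdr, Flt1, Flt4, Nrp1, Plxnd1, Tek and Angpt1 lie higher in DKK + dox at 12 and 24 hours, Plxnd1 at 12 hours with both values under the limit. The thick lines of Nrp2 and Angpt2 run together, and Tie1 stays under the limit.

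Among the VEGF receptors, Kdr had the largest difference. Its intensity was 60.5, 371 and 771 in DKK + dox and 77.5, 99.3 and 89.4 in DKK at 6, 12 and 24 hours. At 6 hours the DKK + dox array was the lowest of the 6, and at 12 and 24 hours DKK + dox lay above every DKK array, while DKK changed little over time. The measured differences were -0.28, 1.71 and 2.85, the last a ratio of 8.63, and in the fit Kdr rose by 2.77 with a standard error (SE) of 0.37 (adjusted p = 0.00453, limma, 6 arrays). Kdr stood above the low-signal limit on all 6 arrays and has 1 probe set. With linear time in place of a separate level for each time, its adjusted p was 0.067, in a range of 0.000377 to 0.199 over 15 alternatives, of which it passed 11.

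Flt4, a receptor best known from lymphatic endothelium and also expressed in early vessels, read 71.3, 287 and 261 in DKK + dox and 60.8, 104 and 90.5 in DKK. DKK + dox was already apart at 12 hours and about as far apart at 24 hours, with differences of 0.18, 1.30 and 1.34. The fitted difference was 1.55 (SE 0.26, adjusted p = 0.0101 from limma). Flt4 passed in 11 of 15 alternatives (adjusted p between 0.00230 and 0.208) and not with a constant difference, with linear time, without the intensity trend or without the 24 hour pair. The other probe set of Flt4 was lower, at 38.1, 62.8 and 44.8 in DKK + dox and 26.6, 31.2 and 26.9 in DKK. Its differences of 0.31, 0.69 and 0.46 stayed short of the threshold in a fit over all 26362 probe sets above the limit (adjusted p = 0.165 from limma), although DKK + dox was the higher at each time.

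Flt1, which binds VEGF with high affinity but signals weakly, was read by 4 probe sets. The one with the highest mean read 17.7, 48.6 and 101 in DKK + dox and 5.70, 23.4 and 23.2 in DKK, so only the 12 and 24 hour DKK + dox arrays exceeded the low-signal limit. It rose by 1.47 in the fit (SE 0.27, limma adjusted p = 0.0127), with measured differences of 0.54, 0.65 and 1.47. It passed in 11 of 14 alternatives (adjusted p from limma between 0.00635 and 0.251), the exceptions being a constant difference, linear time and the 24 hour pair left out. A second probe set read 103 in DKK + dox and 24.0 in DKK at 24 hours and rose as well (fitted difference 1.30, adjusted p = 0.0373 from limma). Another, at 94.8 in DKK + dox and 41.3 in DKK at that time, did not pass (1.06, adjusted p = 0.0794 from limma). The remaining one, named with the suffix _a_at, stayed between 28.2 and 45.7 in DKK + dox and between 24.1 and 39.2 in DKK and did not pass (0.21, adjusted p = 0.703 from limma). The probe sets of Flt1 thus gave unlike values, and which transcripts each one reads was not analysed here.

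The neuropilins, co-receptors shared by VEGF and the class 3 semaphorins, differed from each other. Nrp1 read 65.5, 64.9 and 151 in DKK + dox and 63.5, 30.5 and 22.9 in DKK. Both conditions started level, DKK fell below the limit by 12 hours, and DKK + dox was highest at 24 hours. Differences were 0.03, 0.74 and 1.98, and the fitted rise was 1.80 (SE 0.27, adjusted p = 0.00666 from limma). The 3 other Nrp1 probe sets had differences at 24 hours of 0.68, 0.74 and 0.72 and intensities up to 45.4. The first 2 did not pass, and the last never exceeded the limit and was not tested. With the mean of the 4 Nrp1 probe sets the gene did not pass (0.88, adjusted p = 0.0577 from limma, in a range of 0.00129 to 0.264 over 14 alternatives).

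Nrp2 read 182, 120 and 131 in DKK + dox and 173, 142 and 131 in DKK, and the conditions overlapped. Its differences were 0.07, -0.21 and -0.00 and the fitted value -0.07 (SE 0.18, adjusted p = 0.849 from limma). Its second probe set read 33.7, 85.8 and 73.7 in DKK + dox and 42.6, 57.2 and 35.4 in DKK, a difference of 0.75 at 24 hours that did not pass (fitted 0.70, adjusted p = 0.119 from limma). The sign of the Nrp2 value therefore depends on the probe set. Whether Nrp1 and Nrp2 differ in their response was not tested.

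Plxnd1, the plexin that binds Sema3e and steers vessel growth, read 1, 34.0 and 123 in DKK + dox and 17.2, 17.4 and 24.7 in DKK. Only the DKK + dox array at 24 hours exceeded the low-signal limit, so the differences of -0.81 and 0.53 at 6 and 12 hours compare signals under it. The difference at 24 hours was 1.67, and the fitted value of 1.32 (SE 0.47, adjusted p = 0.107 from limma) did not pass. Without the 6 hour pair Plxnd1 passed, at 1.55 (adjusted p = 0.0256 from limma, in a range of 0.0256 to 0.940 over 14 alternatives).

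Of the angiopoietin receptors, Tek rose and Tie1 had no usable signal. Tek read 67.0, 61.2 and 107 in DKK + dox and 80.8, 37.8 and 22.9 in DKK, the last under the low-signal limit. Between 6 and 24 hours Tek went up by 0.55 on the log2 scale within DKK + dox and changed by -1.22 within DKK. The differences between conditions were -0.21, 0.49 and 1.56, and the fitted rise was 1.33 (SE 0.30, adjusted p = 0.0256 from limma). Tek passed in 10 of 14 alternatives (adjusted p from limma between 0.00861 and 0.612), and failed in the same 4 as Flt4. Tie1 read 1, 1 and 18.9 in DKK + dox and 1.02, 1.25 and 14.5 in DKK, where 1 is the lowest value in the file, and was higher at 24 hours in both. All its values lay under the limit, so no difference could be detected at this signal.

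Angpt1, the ligand that activates Tek, had the largest fitted difference of the members at the offset of 20.6, an order that rests on signals under the limit: with the offset at the 40th percentile it was 2.59 and that of Kdr 2.60, and with the probe sets of each gene averaged it was 2.10 and that of Kdr 2.77. It read 14.4, 71.2 and 217 in DKK + dox and 1, 5.27 and 4.33 in DKK. Every DKK array was far under the low-signal limit, and at 24 hours DKK + dox stood 5.84 times above that limit. A ratio to values so near the floor has no firm meaning, and on the log2 scale with its offset the differences were 0.70, 1.83 and 3.25. Angpt1 rose by 3.31 in the fit (SE 0.28, limma adjusted p = 0.00139) and passed in 13 of 14 alternatives, all but that of a constant difference. Its second probe set read 1, 33.0 and 45.2 in DKK + dox and 33.6, 3.30 and 14.1 in DKK. It fell short of the threshold, at 0.90 in the fit (adjusted p = 0.401 from limma). That probe set exceeded the limit on 1 array only, and its difference of -1.33 at 6 hours compares values under it.

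Angpt2, an angiopoietin that can block or activate Tek depending on the setting, read 107, 109 and 124 in DKK + dox and 124, 95.0 and 126 in DKK. The ranges of the conditions overlapped, with differences of -0.18, 0.16 and -0.02, a fitted value of 0.01 and a SE of 0.20 (adjusted p = 0.980 from limma). Its other probe set stayed under the limit on all 6 arrays. The 2 angiopoietins thus had unlike values in the same cultures, 3.31 and 0.01 in the fit. The difference between them was not tested.

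**Figure D2:**
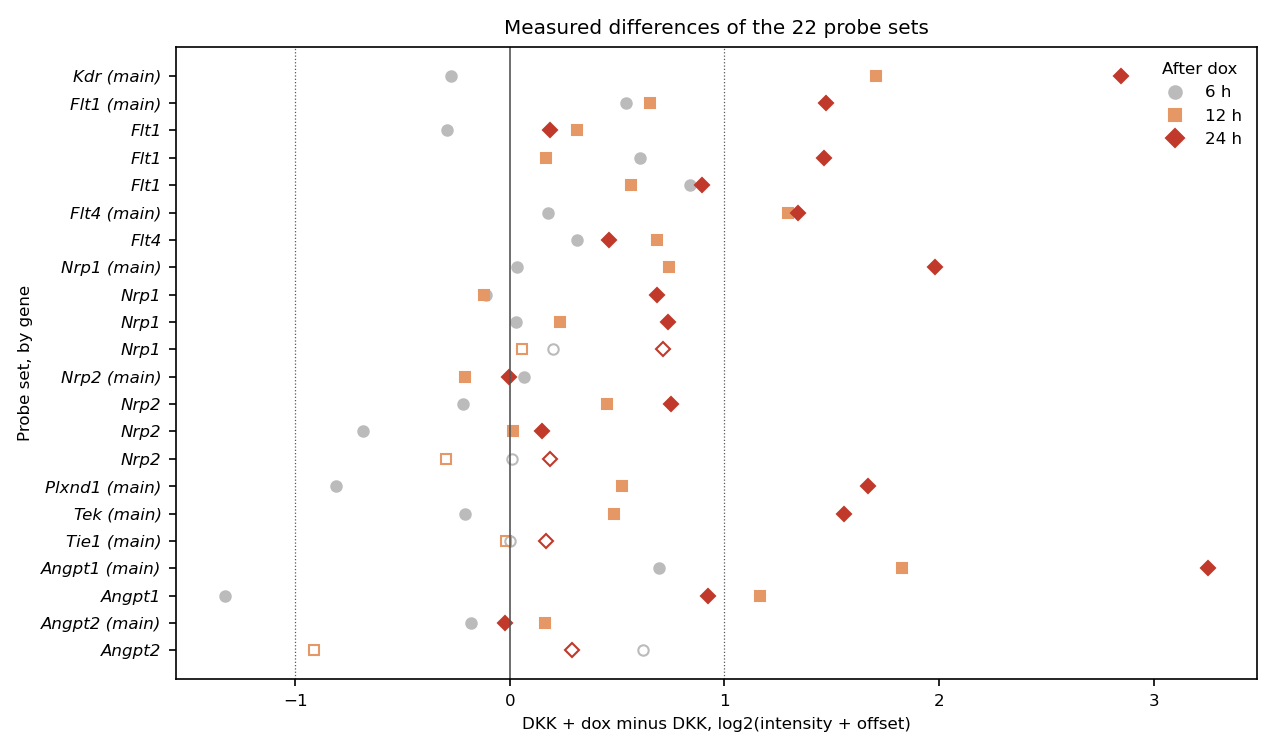
Measured DKK + dox minus DKK differences (log2 of intensity + 20.6) of the 22 probe sets at 6 hours (circles), 12 hours (squares) and 24 hours (diamonds); open symbols are the 4 probe sets that never exceeded the low-signal limit, and dotted lines mark a 2-fold difference. At 24 hours 8 probe sets are at least 2-fold higher and none is 2-fold lower.

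Counted over all 22 probe sets, DKK + dox was higher in 12 and lower in 10 at 6 hours, higher in 17 and lower in 5 at 12 hours, and higher in 20 and lower in 2 at 24 hours. The median difference was 0.02, 0.38 and 0.75. In the fit over probe sets 7 of them rose, 1 each of Kdr, Flt4, Nrp1, Tek and Angpt1 and 2 of Flt1, where 6.81 percent of 26362 probe sets rose, and none fell (5.12 percent). Probe sets of 1 gene share their source and are not replicates. At least 2-fold higher were 0, 4 and 8 of the 22 at 6, 12 and 24 hours, beside 0.209, 1.20 and 2.95 percent of probe sets tested. The second probe set of Angpt1, at 6 hours and under the limit, was 2-fold lower. By gene, 0, 3 and 7 of the 10 were at least 2-fold higher at 6, 12 and 24 hours, with a background of 0.271, 1.27 and 3.12 percent of the genes tested. At 12 hours the 3 were Kdr, Flt4 and Angpt1, and at 24 hours Flt1, Nrp1, Plxnd1 and Tek had joined them. None was 2-fold lower at any time (0.468, 2.25 and 2.20 percent).

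The other VEGF and angiopoietin ligands measured did not pass in either direction. Vegfa, the main ligand of Kdr and Flt1, read 117, 68.2 and 133 in DKK + dox and 116, 65.8 and 63.4 in DKK. The conditions were level at 6 and 12 hours and 0.88 apart at 24 hours (fitted difference 0.68, adjusted p = 0.0958 from limma), and a second Vegfa probe set was 0.28 apart at that time. Vegfc, a ligand of Flt4, read 154, 81.1 and 188 in DKK + dox and 207, 126 and 107 in DKK, with differences of -0.38, -0.52 and 0.71 (fitted difference 0.27, adjusted p = 0.667 from limma). All 3 Vegfc probe sets were lower with dox at 12 hours and higher at 24 hours. Vegfb, which binds Flt1, was at 0.15 in the fit, and Vegfd, another ligand of Flt4, at 0.03. Pgf (placental growth factor), a further ligand of Flt1, was at -0.30, Angpt4 at -0.16, and the phosphatase Ptprb (VE-PTP), which acts on Tek, at 0.27. Their adjusted p from limma ran from 0.491 for Ptprb to 0.963 for Vegfd. For Ptprb and Angpt4 the sign depended on the probe set. At 24 hours the main Ptprb probe set differed by 0.27 and its others by -0.42 and -0.31. The main Angpt4 probe set differed by -0.13 and its other, under the limit on all arrays, by 0.48.

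**Figure D3:**
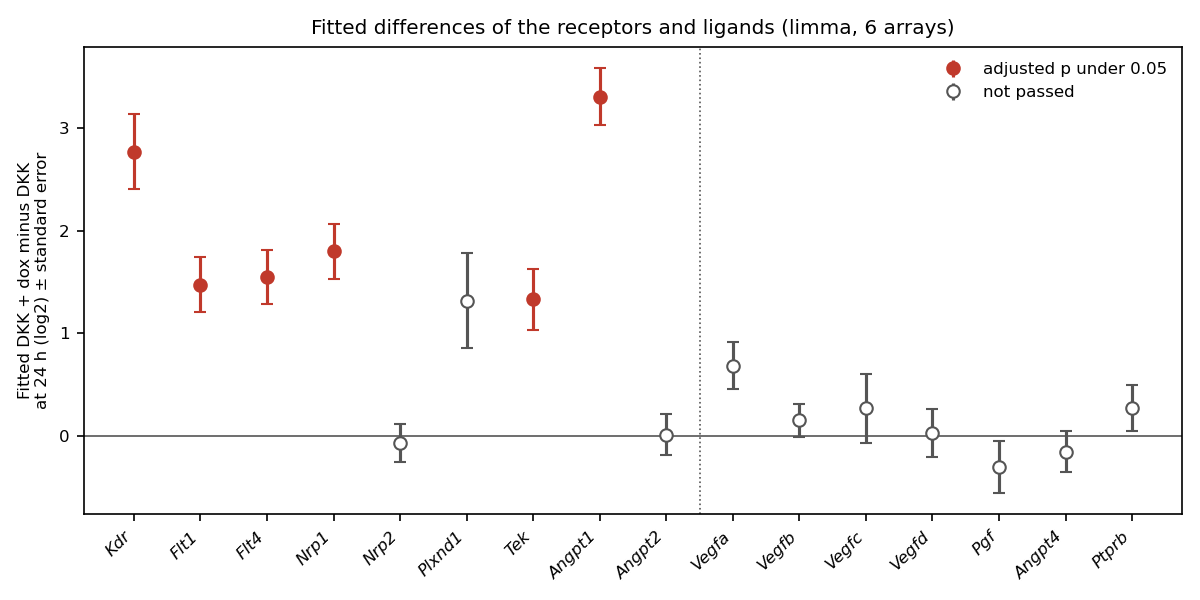
Fitted DKK + dox minus DKK difference at 24 hours in log2 units, with its standard error (SE) from limma over 6 arrays, for the 9 members tested (left of the dotted line) and for 6 other ligands and the phosphatase Ptprb; red symbols passed at an adjusted p under 0.05. The 6 red symbols lie between 1.33 and 3.31, and the ligands to the right lie between -0.30 and 0.68.

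Further along the pathway, 34 of 38 listed ligands, partners and proximal signalling genes had a probe set and 32 were tested. Of these 6 rose and 4 fell, beside the 8.32 and 6.38 percent of all genes. Their median difference at 24 hours was 0.10, against 0.01 for all genes. The largest rises were those of Akt1 (fitted difference 0.82) and Pik3r1 (0.79), a kinase and a phosphoinositide 3-kinase subunit used by many receptors, of the phospholipase Plcg1 (0.63), which Kdr activates, and of the focal adhesion protein Pxn (0.62). The genes that fell in the fit were Plcg2 (-1.89), the semaphorins Sema3c (-1.51) and Sema3e (-1.36), and the adaptor Grb14 (-0.87). At 12 and 24 hours the measured differences were -1.94 and -1.39 for Plcg2 and -1.505 and -1.09 for Sema3c. They were -1.49 and -0.90 for Sema3e and -0.62 and -0.83 for Grb14. Only that of Grb14 grew after 12 hours, so the fitted values of the others exceed those measured at 24 hours. Sema3e, the ligand of Plxnd1, read 158, 114 and 148 in DKK + dox and 237, 357 and 296 in DKK, lower with dox at each time (adjusted p = 0.0372 from limma). Neither direction held without the intensity trend in limma, with a constant difference or with linear time, where 0 of these genes rose and 0 fell. With the mean of all probe sets of a gene, Akt1 (0.42), Plcg1 (0.27), Pxn (0.35), Sema3c (-0.82) and Grb14 (-0.40) did not pass. Pik3r1, Plcg2 and Sema3e still passed.

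A list of 38 blood and endothelial genes, chosen with earlier results of these data known, was set beside the members. Of these 30 exceeded the low-signal limit, 6 of them only on DKK + dox arrays, and 15 rose, none fell and 15 did not pass, beside the 8.32 percent of all genes that rose. That count was 0 with a constant difference, 4 with linear time, 5 without the intensity trend, 4 without the 24 hour pair and 5 when each array had to exceed the limit. The median difference of all 38 was 0.64 at 24 hours. The largest rises were those of 2 ETS factors, Fli1 (3.71 in the fit) and Ets1 (3.46), of Mef2c (3.17) and of Gata2 (3.09), transcription factors of endothelial or blood development. The paper had already named Gata2 among the genes strongly induced by Snail in these arrays. The adhesion molecule of endothelial junctions Cdh5 (VE-cadherin) read 7.02, 31.6 and 145 in DKK + dox and 1, 20.0 and 29.8 in DKK (fitted difference 1.51, adjusted p = 0.0177 from limma), and was picked out after its values were seen. Among other genes of endothelium, picked out in the same way, levels were mixed. Aplnr (fitted difference 2.32) and Cd34 (1.22) rose, as did Ecscr (2.44). Pecam1, Emcn, Vwf and Robo4 never exceeded the limit, while Egfl7, Eng and Esam exceeded it on all 6 arrays and did not pass. In bulk RNA, more cells of a type and more RNA per cell cannot be told apart.

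**Figure D4:**
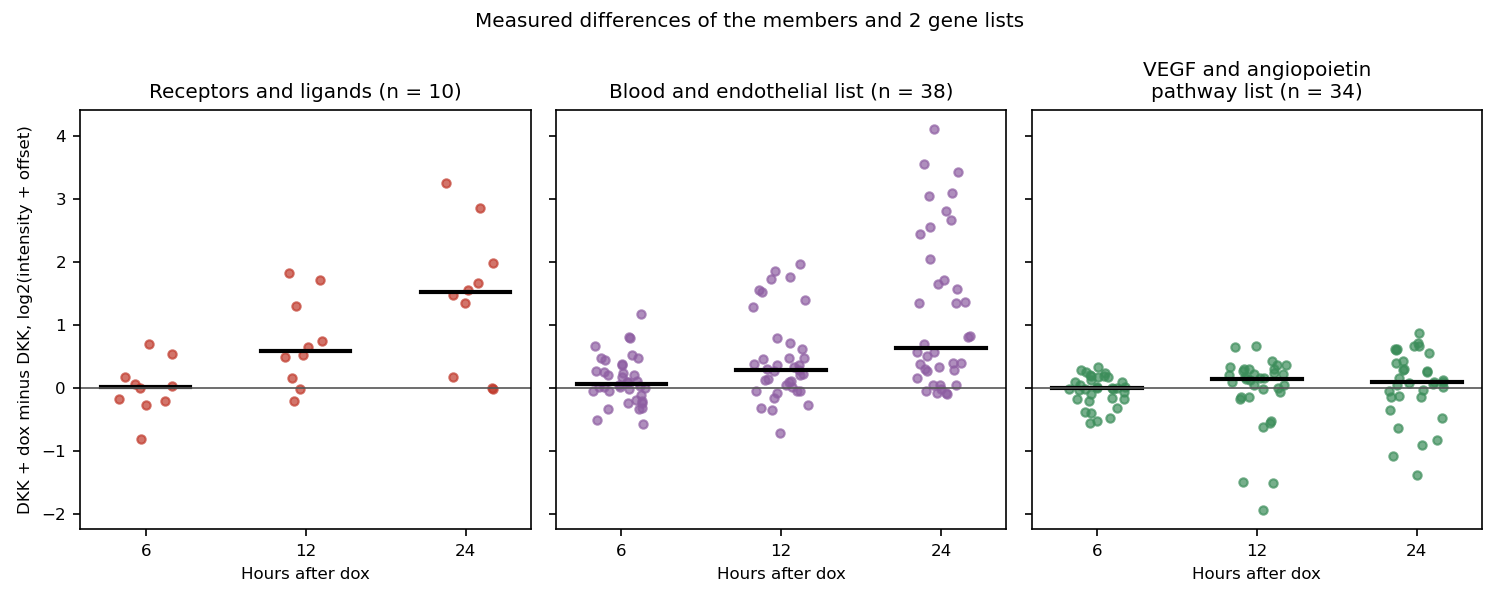
Measured DKK + dox minus DKK differences (log2 of intensity + 20.6) against hours after dox for the 10 members, 38 blood and endothelial genes and 34 pathway genes, 1 point per gene, and black bars at the medians, which at 24 hours are 1.51, 0.64 and 0.10.

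Markers of other cells were counted in the same fit, in which 8.32 percent of all genes rose and 6.38 percent fell. Among parietal endoderm genes 4 of 10 rose and 1 fell (Sox7 stands in this list and in that of blood and endothelium). Their summed intensity at 6, 12 and 24 hours was 6143, 4601 and 6605 in DKK + dox and 6392, 4356 and 3843 in DKK. Feeder fibroblast genes rose in 2 of 6 tested cases, with sums of 518, 707 and 773 in DKK + dox and 668, 428 and 473 in DKK. Of the 10 feeder genes 4, among them Lum and Postn, never exceeded the limit. Mesoderm genes rose in 4 of 14 and fell in none, with sums of 1737, 1780 and 2631 in DKK + dox and 1541, 1051 and 1090 in DKK. Of 8 visceral endoderm genes tested 0 rose and 1 fell. The sums of that list were 3768, 1826 and 1835 in DKK + dox and 4081, 2437 and 2737 in DKK. Of 5 genes tested of trophoblast, a cell type in which Flt1 is known to be expressed, none passed. Epithelial genes fell in 8 of 9 cases. Sox7 itself, a factor of parietal endoderm and of endothelium, read 276, 54.5 and 356 in DKK + dox and 272, 53.9 and 25.1 in DKK. It was picked out after its values were seen. The part of these cells in the values of the members was not tested.

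The genes whose course over the 6 arrays lay nearest to that of Kdr, by the root mean square distance between log2 values centred on each gene's mean, were Naalad2 (0.17), Fat4 (0.17), Sema6d (0.19), Myzap (0.24) and Ecscr (0.26). Ecscr, a surface protein of endothelial cells, read 35.1, 148 and 288 in DKK + dox and 25.6, 43.8 and 36.2 in DKK. Nearest to Angpt1 were Myzap (0.20), Tgfb1i1 (0.20), Ets1 (0.21), Pknox2 (0.22) and Mef2c (0.23). Myzap stood in both sets, at 29.0, 154 and 401 in DKK + dox and 18.3, 37.2 and 21.6 in DKK. With 3 times and 2 conditions, many genes share such a course, and the distance is a description only.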

How the data were processed

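The authors hybridised 6 RNA samples to Affymetrix MOE430_2.0 arrays and normalized and modeled them with dChip. Whether the 3 times came from separate cultures is not said in the sources used here. The values they deposited are intensities on a linear scale, floored at 1 (2.51 to 3.00 percent of an array's probe sets). The version of dChip is not given in the sources used here. GEO's platform annotation gave gene symbols, and 34741 of 34945 probe sets with 1 symbol matched RefSeq genes of GRCm38.p6 by Entrez ID. Probe sets with several symbols (932) or no gene listed (9160) were not used.

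For a gene with several probe sets the brightest on average was used. Values were taken as log2(intensity + 20.6), the offset being the 25th percentile of all values, and 3438 genes that never exceeded 37.2 were left out. limma 3.58.1 in R 4.3.3 fitted 4 coefficients, 1 per time and 1 for DKK + dox minus DKK in proportion to hours (lmFit and trended eBayes, with a prior df of 5.50). The Benjamini-Hochberg adjustment ran over all genes or probe sets fitted. The number of arrays limits the precision. Named genes are the members, the other ligands and Ptprb, the 4 largest passing list genes in each direction, the 5 genes nearest to Kdr and Angpt1, and Snai1 and Cdh1. Cdh5, Aplnr, Cd34, Pecam1, Emcn, Vwf, Robo4, Egfl7, Eng, Esam, Sox7, Lum and Postn fall outside this rule and were chosen with their values in view. The members, lists and tests were chosen with earlier results of these data known. Alternatives changed the offset, filter, normalization, probe set, model, fold threshold or left-out time. Figures were drawn with matplotlib 3.10.9.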

Additional observations from a re-analysis of the deposited data

Results flagged for a closer look

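In 14 named genes the DKK + dox minus DKK difference had opposite signs at 6 and 24 hours. Each time is 1 array per condition, so this change was not tested. From 6 to 24 hours the difference of Kdr changed by 3.12 in log2 units, that of Tek by 1.77 and that of Plxnd1 by 2.48. The values of Plxnd1 at 6 hours lay under the low-signal limit, and those of Kdr and Tek lay above it. For Tie1 and Snai1, under the limit on all arrays, the changes were 0.17 and 0.248. The difference of Nrp2 changed by -0.069, with values close to 0 at both times. Among the ligands and partners the changes were 0.071 for Vegfb, 1.10 for Vegfc, -0.53 for Pgf, 0.34 for Ptprb and -0.85 for Grb14. They were 3.997 for Gata2, and 2.89 and 2.82 for Naalad2 and Fat4, which lie nearest to Kdr. At 6 hours both values of Naalad2 and of Fat4, and the DKK + dox value of Gata2, lay under the low-signal limit.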

How the results depend on the processing

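Arrays were paired by time in all fits but that with linear time. The labels carry no replicate numbers, so there was no replicate to block on. The number of members that rose was 6, and it was 0 with a constant difference, 1 with linear time, 3 without the intensity trend, 1 without the 24 hour pair and 2 when each array had to exceed the limit (an alternative chosen after seeing the data). For the 7 member probe sets these counts were 0, 1, 3, 2 and 2, and for the 15 blood and endothelial genes 0, 4, 5, 4 and 5. For the pathway list, with 6 that rose and 4 that fell, a constant difference, linear time and no intensity trend gave 0 and 0. The mean of all probe sets gave 3 and 2. Without the 6 hour pair 2 rose and 1 fell, and without the 12 hour pair 3 rose and 3 fell. Without the 24 hour pair 1 rose and 3 fell. At 3-fold, 4 of the members were higher at 24 hours, against 7 at 2-fold. Over all genes, 1227 rose and 941 fell; linear time gave 121 and 80, no intensity trend 209 and 76, and no 24 hour pair 229 and 499.

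Of the 503 values of single genes under an alternative, 408 kept their direction and side of the threshold, 85 no longer passed, 1 newly passed and 9 turned sign. None of those 9 had passed: Nrp2 (0.16 with the mean of all probe sets, 0.012 without the 12 hour pair), Angpt2 (-0.013 with a constant difference, -0.061 without the 12 hour pair), Vegfc (-0.066 with a constant difference, -1.15 without the 24 hour pair), Vegfd (-0.07 without the 12 hour pair), and Angpt4 (0.16) and Ptprb (-0.14) with the mean of all probe sets. The cause of these changes was not tested. Signal limits Tie1, Plxnd1 and the DKK levels of Flt1 and Angpt1. The DKK levels of Nrp1 at 12 and 24 hours and of Tek at 24 hours also lay under the low-signal limit.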
